A study of Mus musculus with 6 samples.

Results

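The levels of 10 genes of cellular iron handling were read in mouse hearts after ischemia-reperfusion: Trf, Tfrc, Steap3 and Slc39a14 for uptake, Fth1 and Ftl1 for storage, Ncoa4 for release from storage, Slc40a1 for export, Ireb2 for sensing and Hmox1 for heme breakdown. They were picked by gene name, and all 10 were found as 1 row each among the 55359 genes of the deposited table. The libraries labelled YTHDF2 shRNA (shYthdf2 1, 2 and 3) were set against those labelled NC shRNA (shNC 1, 2 and 3), a negative control. Every sample was heart tissue of a C57BL/6 mouse given an AAV9 vector through the tail vein, with a GFP gene driven by cTNT, a cardiomyocyte promoter. All had I/R surgery after 4 weeks (45 min ischemia, 24 h reperfusion), so neither an uninjured nor an uninjected heart enters the comparison. Age and sex are not in the labels used here, and the labels do not say whether replicates were separate animals. The p-values therefore measure the spread between these libraries, which may be technical. The series' title names YTHDF2, SLC7A11 and ferroptosis, a cell death driven by iron-dependent lipid peroxidation, and the comparison asks how the transcripts that move iron stand in the 2 groups.

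Iron reaches most cells bound to transferrin, which is taken up with its receptor, reduced in the endosome and passed to the cytosol. Surplus iron is stored in ferritin, a shell of heavy and light chains, and is released when the adaptor NCOA4 carries ferritin to the lysosome, a route called ferritinophagy. Ferroportin is the exporter, and heme oxygenase frees iron from heme. When iron is scarce, the iron regulatory proteins IRP1 and IRP2 bind iron-responsive elements (IREs), hairpins in the untranslated regions of some of these messages. Binding near the 5′ end blocks translation of the ferritins and ferroportin, whereas binding in the 3′ untranslated region protects the transferrin receptor message from decay. The heart is rich in heme proteins and mitochondria, and free iron in injured heart muscle is known as a source of lipid peroxidation.

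The IRE sequences are shown because the iron sensors are known to bind such hairpins. They were found by sequence alone, so binding was not measured and elements of another form were not sought. A 30-base pattern was searched in the protein-coding transcripts of GENCODE M21 (GRCm38): an unpaired C, an upper stem of 5 pairs, the 6-base loop CAGTGN with a last base other than G, and a lower stem. The lower stem needed 5 pairs among 6 positions, or 5 pairs with 1 unpaired base on the 5′ side. The second form was allowed because ferritin elements are known to have it, and Fth1 matched by it alone. The share among the genes described here is therefore a description. The pattern was found in 15 of 21901 genes, 0.0685%, and in 4 of the 10 genes described here. Capitals mark the loop.
Fth1, 5′ UTR, exon 1, chr19:9982731-9982760, plus strand: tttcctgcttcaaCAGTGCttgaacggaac
Ftl1, 5′ UTR, exon 1, chr7:45459779-45459808, minus strand: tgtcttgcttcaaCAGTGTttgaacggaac
Slc40a1, 5′ UTR, exon 1, chr1:45925465-45925494, minus strand: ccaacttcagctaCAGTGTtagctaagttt
Tfrc, 3′ UTR, exon 19, chr16:32631218-32631247, plus strand: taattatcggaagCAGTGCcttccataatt
Tfrc, 3′ UTR, exon 19, chr16:32631597-32631626, plus strand: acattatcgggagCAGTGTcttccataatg
Tfrc, 3′ UTR, exon 19, chr16:32631662-32631691, plus strand: tctatatcggagaCAGTGAtctccatatgt
Tfrc, 3′ UTR, exon 19, chr16:32631709-32631738, plus strand: taattatcgggaaCAGTGTttcccataatt

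The ferritin chains share the same upper stem around the loop, and the message of the transferrin receptor holds 4 matches within its last exon. These coordinates are GRCm38, while the coordinates of genes below are those of the deposited table, whose build is not given in the sources used here.

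The deposited counts summed to between 67023813 and 77561552 per library. Ythdf2, the gene the shRNA is aimed at, had 25.1, 25.6 and 32.7 CPM (counts scaled to 1000000 per library, on the TMM-scaled library size) in shYthdf2 1, 2 and 3, against 20.7, 24.3 and 27.0 CPM in shNC 1, 2 and 3 (log2 fold change 0.21 ± 0.20 SE, edgeR adjusted p = 0.976). Its level under the YTHDF2 shRNA label was therefore no lower than under the control label, so each difference below is one between labels. None of the 12 cardiomyocyte markers was at 0 in all libraries, and together they reached 30733 to 36752 CPM in shYthdf2 and 24310 to 60628 CPM in shNC. The libraries shYthdf2 1 and 2 were the closest of all 15 pairs, with a root mean square difference of 1.11 in log2 CPM over the genes tested, against 1.33 to 1.69 for the others. They differed by more than counting noise (chi-square per degree of freedom 39.5), so they were not counted as 1 library deposited 2 times. Whether they came from separate animals is not in the labels. In these heart tissue samples, fewer cells of a type and less RNA per cell cannot be told apart.

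None of the 10 genes passed an adjusted p under 0.05 in edgeR, where 2 of the 20489 genes tested did (0.00976%). Likewise 0 of the 10 passed in DESeq2, where 0.187% of genes did, and 0 of the 10 in limma on log2(FPKM + 0.5), where 0.0211% did. At an unadjusted p under 0.05, 3 of the 10 stood out in edgeR, Ncoa4, Hmox1 and Steap3, and 3.65% of all genes tested did. The groups overlapped in CPM for each of the 10 genes, whereas they did not overlap for 9.51% of all genes tested. Log2 fold changes were above 0 for 7 of the 10 genes and for 48.6% of all, with a median of 0.10 over the 10 and -0.01 over all. All 10 genes passed the filter on low counts. The genes were chosen with results of these libraries known, so these shares are a description.

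**Figure D1:**
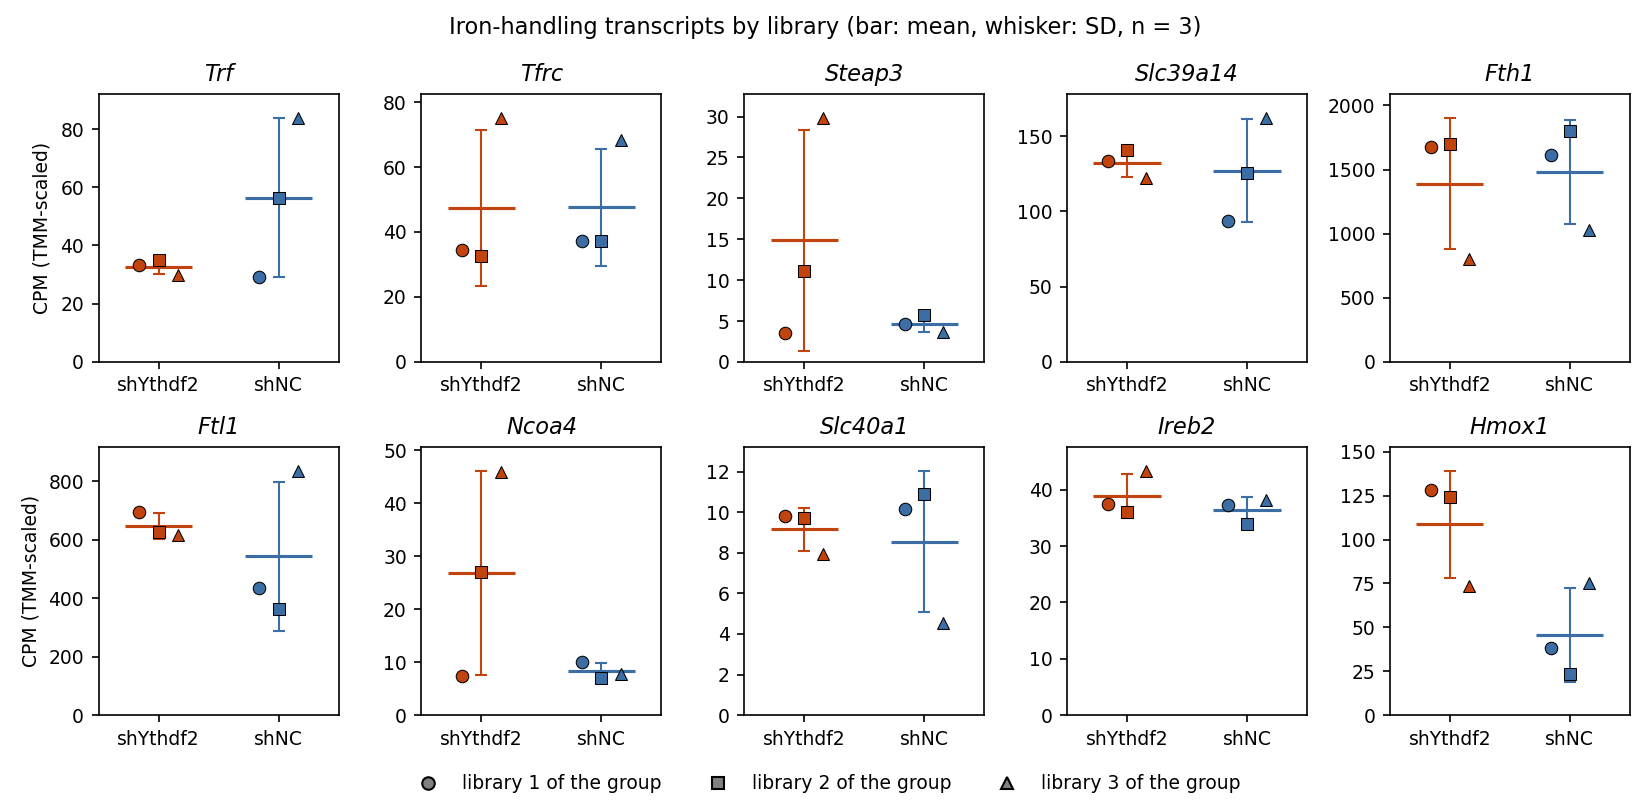
CPM on the TMM-scaled library size of the 10 iron genes, shYthdf2 left and shNC right in each panel; each symbol is a library (circle 1, square 2, triangle 3), the bar is the mean and the whisker the SD (n = 3). Fth1 is low and Tfrc high in library 3 of both groups, while Ncoa4 and Steap3 are high in shYthdf2 2 and 3 only.

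By FPKM, a level per kilobase of gene model and per library size as the authors deposited it, Fth1 and Ftl1 took the first and second place in all 6 libraries, in either order. Hmox1 came next in each library other than shNC 2, where Trf was above it. Slc40a1, Ncoa4 and Steap3 held the last 3 places in every library but shYthdf2 3, where Ncoa4, Ireb2 and Slc40a1 did. The ferritins, at 206 to 631 FPKM, did not overlap with Hmox1, at 10.7 to 66.8 FPKM. Neighbours further down, Slc39a14 (7.72 to 15.5 FPKM), Trf (7.64 to 25.6 FPKM) and Tfrc (4.81 to 11.2 FPKM), overlapped over the 6 libraries. All these places depend on the length behind the FPKM. For Slc39a14 the deposited values imply 11594 to 11823 bases, where its longest coding transcript in GENCODE M21 has 4926. Places by spliced length can therefore differ from those given here.

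Transferrin, the carrier of iron in plasma, is made mainly by the liver. Its gene Trf (ENSMUSG00000032554, chromosome 9, 103081200 to 103107643, minus strand) had 33.4, 34.9 and 29.8 CPM in shYthdf2 1, 2 and 3, against 29.1, 56.2 and 83.8 CPM in shNC 1, 2 and 3. The shNC libraries were the more scattered, with shNC 1 below all shYthdf2 libraries and shNC 2 and 3 above them. The means were 32.7 ± 2.61 CPM in shYthdf2 and 56.4 ± 27.4 CPM in shNC (SD, n = 3 each), and the log2 fold change was -0.79 ± 0.36 (SE; 95% interval -1.62 to 0.05; edgeR adjusted p = 0.976). Without shNC 3 it was -0.38, and without shNC 1 it was -1.09. Hepatocyte markers stood in a like order among the shNC libraries, but not within shYthdf2. The summed level of the 8 markers was 81.0, 72.3 and 94.5 CPM in shYthdf2 1, 2 and 3, and 70.5, 225 and 387 CPM in shNC 1, 2 and 3. None of the 8 was at 0 in all libraries, all 8 had shNC 2 and 3 as their highest libraries, and Alb, which encodes albumin, had 41.3, 42.2 and 52.0 CPM in shYthdf2 and 38.5, 132 and 226 CPM in shNC. The part of these transcripts in the level of Trf was not tested.

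The transferrin receptor gene Tfrc (ENSMUSG00000022797, chromosome 16, 32427738 to 32451612, plus strand) had 34.4, 32.7 and 75.1 CPM in shYthdf2 1, 2 and 3, against 37.1, 37.3 and 68.4 CPM in shNC 1, 2 and 3. The third library of each group lay well above the other 4, which were close to each other. The group means did not separate, at 47.4 ± 24.0 CPM in shYthdf2 and 47.6 ± 18.0 CPM in shNC (SD, n = 3 each). With a log2 fold change of -0.01 ± 0.40 (SE; 95% interval -0.94 to 0.93; edgeR adjusted p = 0.999), a difference of nearly 2-fold either way lies within the interval. The 8 fibroblast markers, none at 0 in all libraries, summed to 767, 785 and 1503 CPM in shYthdf2 and to 926, 817 and 1208 CPM in shNC. Of them 5, the collagens Col1a1, Col1a2 and Col3a1 with Pdgfra and Lum, were highest in library 3 of both groups. The other 3, Dcn, Tcf21 and Dpt, were lowest in shNC 3 among the shNC libraries. Their part in the level of Tfrc was not tested.

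Steap3 encodes an endosomal ferrireductase, which reduces the iron freed from transferrin so that it can leave the endosome. The gene (ENSMUSG00000026389, chromosome 1, 120118487 to 120198812, minus strand) had 3.55, 11.2 and 29.8 CPM in shYthdf2 1, 2 and 3, against 4.6, 5.71 and 3.65 CPM in shNC 1, 2 and 3. It was high in shYthdf2 3 and intermediate in shYthdf2 2, while shYthdf2 1 was the lowest of the 6 libraries. The raw counts were 256, 865 and 2268 in shYthdf2 and 341, 387 and 277 in shNC. The mean was 14.9 ± 13.5 CPM in shYthdf2 and 4.65 ± 1.03 CPM in shNC (SD, n = 3 each), with a log2 fold change of 1.67 ± 0.68 (SE; 95% interval 0.08 to 3.27; edgeR adjusted p = 0.976). An exact permutation test of its 6 CPM values, two-sided, had p = 0.4; 3 against 3 libraries cannot go below 0.1. Without shYthdf2 3 the log2 fold change was 0.66.

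Slc39a14 encodes ZIP14, a carrier that takes up iron not bound to transferrin along with other metals. It (ENSMUSG00000022094, chromosome 14, 70540918 to 70588874, minus strand) had 133, 141 and 122 CPM in shYthdf2 1, 2 and 3, against 93.4, 126 and 162 CPM in shNC 1, 2 and 3. The shYthdf2 values lay inside the range of the shNC values. Its log2 fold change was 0.06 ± 0.24 (SE; 95% interval -0.50 to 0.61; edgeR adjusted p = 0.988), and -0.12 without shNC 1.

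Fth1, the ferritin heavy chain with the ferroxidase activity that loads iron, had the most counts of the 10 genes. The gene (ENSMUSG00000024661, chromosome 19, 9957962 to 9962456, plus strand) had 1675, 1698 and 799 CPM in shYthdf2 1, 2 and 3, against 1616, 1801 and 1027 CPM in shNC 1, 2 and 3. As with Tfrc, library 3 of each group stood apart, here as the low one. The means were 1391 ± 512 CPM in shYthdf2 and 1482 ± 404 CPM in shNC (SD, n = 3 each), and the log2 fold change was -0.09 ± 0.37 (SE; 95% interval -0.95 to 0.77; edgeR adjusted p = 0.987). Its sign turned without shNC 2 (0.08) and without shYthdf2 3 (0.19). Rows named as heavy-chain paralogs or pseudogenes held at most 10 counts in a library, so they took next to nothing from the Fth1 row.

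Ftl1, the light chain that helps the mineral core to form, had 697, 625 and 616 CPM in shYthdf2 1, 2 and 3, against 434, 362 and 835 CPM in shNC 1, 2 and 3. The gene is ENSMUSG00000050708 on chromosome 7, from 45107368 to 45109308 on the minus strand. All shYthdf2 libraries were above shNC 1 and 2, and shNC 3 was above them all. The means were 646 ± 43.9 CPM in shYthdf2 and 543 ± 255 CPM in shNC (SD, n = 3 each). For Ftl1 the log2 fold change was 0.25 ± 0.34 (SE; 95% interval -0.54 to 1.04; edgeR adjusted p = 0.976), and 0.70 without shNC 3, with an adjusted p of 0.0827 in a fit where 0.993% of the genes tested passed. The 15 macrophage and monocyte markers, none at 0 in all libraries, summed to 789, 803 and 804 CPM in shYthdf2 and to 546, 547 and 1170 CPM in shNC. Lyz2 alone gave 529 CPM of the sum in shNC 3. Of the 15 markers, 8 were highest of all libraries in shNC 3 and 6 had shNC 1 and 2 as their lowest libraries, while 4, Cd163, Ly6c2, Timd4 and Spic, were lower in shNC 3 than in shNC 1 and 2. Their part in the level of Ftl1 was not tested.

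The Ftl1 counts can be split with other rows. A miRNA row nested in the gene on the same strand held 7875, 8299 and 5658 counts in shYthdf2 1, 2 and 3, and 5508, 4165 and 10232 in shNC 1, 2 and 3. The pseudogene Ftl1-ps1 held 1079, 1230 and 1048 counts in shYthdf2 and 208, 563 and 1790 in shNC. The log2 fold change of Ftl1 was 0.23 with the nested row summed on and 0.26 with the pseudogenes and paralogs summed on.

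The balance of the ferritin chains within a library, as the ratio of Ftl1 to Fth1 by FPKM, was 1.08, 0.953 and 2.0 in shYthdf2 1, 2 and 3, against 0.694, 0.520 and 2.10 in shNC 1, 2 and 3. The light chain was in clear excess by FPKM in shYthdf2 3 and shNC 3 alone. On the log2 scale the ratio averaged 0.35 ± 0.57 in shYthdf2 and -0.13 ± 1.06 in shNC (SD, n = 3 each), a difference of 0.48 (exact two-sided permutation p = 0.6). The level of the ratio depends on the length behind the FPKM: the deposited values imply 3810 to 3885 bases for Fth1 and 1472 to 1501 for Ftl1, where the spliced transcripts shown above have 929 and 968 bases. For each ferritin this was the shortest transcript of the consensus coding set (CCDS) that holds the IRE. Fth1 has 5 coding transcripts in GENCODE M21 and Ftl1 has 2. With counts per kilobase of those transcripts the ratio was 0.399, 0.353 and 0.740 in shYthdf2 and 0.257, 0.193 and 0.780 in shNC. By these lengths Fth1 was the higher in all 6 libraries. The difference between the groups stayed at 0.48, as the length cancels from it.

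The ratio of Tfrc to Fth1, messages whose proteins IRP binding is known to move in opposite directions, was 0.0115, 0.0108 and 0.0527 by FPKM in shYthdf2 1, 2 and 3, against 0.0129, 0.0116 and 0.0373 in shNC 1, 2 and 3. The third library of each group was the highest, and the other 4 lay close together. The mean log2 ratio was -5.74 ± 1.30 in shYthdf2 and -5.82 ± 0.93 in shNC (SD, n = 3 each), a difference of 0.08 (exact two-sided permutation p = 1.00). That difference was -0.67 without shYthdf2 3, -0.15 without shNC 1, -0.23 without shNC 2 and 0.62 without shNC 3. The labels name nothing that the third libraries have in common beyond their replicate number, and do not say that such numbers pair the samples.

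**Figure D2:**
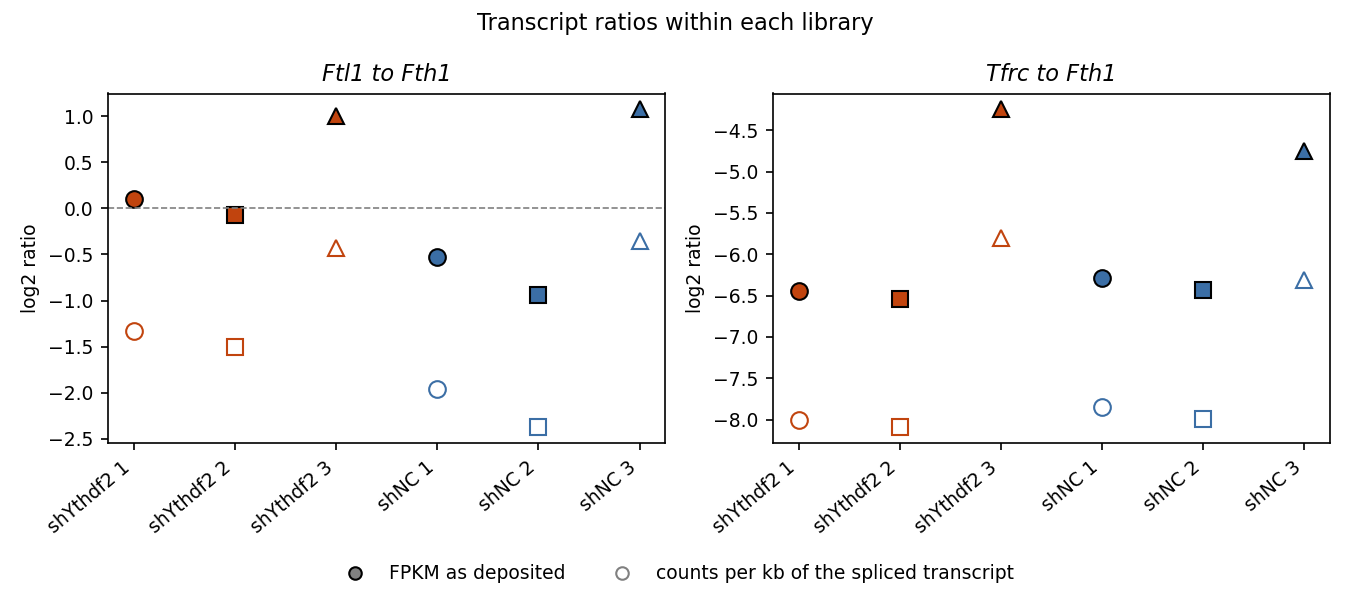
Log2 ratio of Ftl1 to Fth1 (left) and of Tfrc to Fth1 (right) in each library, from the deposited FPKM (filled) and from counts per kilobase of the spliced GENCODE M21 transcript (open). Library 3 of each group is the highest of its group in both ratios, and the open symbols lie lower by a constant amount. That amount depends on the transcript chosen, the shortest CCDS transcript with the IRE for Fth1 and Ftl1 and the longest coding transcript for Tfrc.

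Ncoa4 encodes the cargo receptor of ferritinophagy, which binds the ferritin heavy chain. The gene (ENSMUSG00000056234, chromosome 14, 31881822 to 31901812, plus strand) had 7.42, 27.0 and 46.0 CPM in shYthdf2 1, 2 and 3, against 10.1, 7.07 and 7.70 CPM in shNC 1, 2 and 3. The raw counts were 536, 2093 and 3494 in shYthdf2 and 749, 479 and 585 in shNC. As with Steap3, shYthdf2 2 and 3 were above all shNC libraries. shYthdf2 1 lay among the shNC libraries, whereas for Steap3 it was below them. Ncoa4 thus also separated shYthdf2 1 from shYthdf2 2, which were the closest pair over all genes. The mean was 26.8 ± 19.3 CPM in shYthdf2 and 8.29 ± 1.61 CPM in shNC (SD, n = 3 each), and the log2 fold change was 1.69 ± 0.58 (SE; 95% interval 0.33 to 3.05; edgeR adjusted p = 0.976, DESeq2 adjusted p = 0.261). By exact two-sided permutation p was 0.3. The estimate was 1.06 without shYthdf2 3 and 2.14 without shYthdf2 1. A row named Ncoa4-ps, a pseudogene, held 59, 114 and 430 counts in shYthdf2 and 126, 97 and 38 in shNC, and with it summed on the log2 fold change was 1.63.

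Slc40a1 encodes ferroportin, which in the heart is found in cardiomyocytes and in macrophages that recycle iron. The gene (ENSMUSG00000025993, chromosome 1, 45947228 to 45965683, minus strand) had 9.83, 9.72 and 7.95 CPM in shYthdf2 1, 2 and 3, against 10.2, 10.9 and 4.54 CPM in shNC 1, 2 and 3. The low value was that of shNC 3, and the next lowest that of shYthdf2 3. Its log2 fold change was 0.10 ± 0.35 (SE; 95% interval -0.72 to 0.93; edgeR adjusted p = 0.986) and -0.20 without shNC 3.

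Ireb2, which encodes IRP2, varied least among the 10. The gene (ENSMUSG00000032293, chromosome 9, 54771073 to 54819814, plus strand) had 37.4, 36.0 and 43.3 CPM in shYthdf2 1, 2 and 3, against 37.3, 33.9 and 38.1 CPM in shNC 1, 2 and 3. Its highest library was 1.28-fold its lowest, where the others ran from 1.73-fold for Slc39a14 to 8.42-fold for Steap3. Between the groups the log2 fold change was 0.09 ± 0.17 (SE; 95% interval -0.30 to 0.48; edgeR adjusted p = 0.976).

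Hmox1, the inducible heme oxygenase, opens the heme ring and releases iron, carbon monoxide and biliverdin, and is known as a target of NRF2 that BACH1 holds back. The gene (ENSMUSG00000005413, chromosome 8, 75820249 to 75827217, plus strand) had 128, 124 and 73.6 CPM in shYthdf2 1, 2 and 3, against 38.4, 23.4 and 75.5 CPM in shNC 1, 2 and 3. It was high in shYthdf2 1 and 2 and low in shNC 1 and 2, and shYthdf2 3 and shNC 3 met in between, so the groups overlapped by that pair alone. The mean was 109 ± 30.3 CPM in shYthdf2 and 45.8 ± 26.8 CPM in shNC (SD, n = 3 each). That is 2.37-fold, with a log2 fold change of 1.25 ± 0.44 (SE; 95% interval 0.22 to 2.28; edgeR adjusted p = 0.976, DESeq2 adjusted p = 0.451). By exact two-sided permutation p was 0.2. Without shNC 3 the log2 fold change was 1.82 and the edgeR adjusted p 0.0607, the lowest of any of the 10 genes under any alternative. In that fit 0.993% of the genes tested passed. An unadjusted p under 0.05 was held there by 4160 of 21245 genes, against 748 of 20489 with all libraries. Leaving out any other library gave a log2 fold change of Hmox1 of 0.94 to 1.47.

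Platelet markers, 10 genes, summed to 210, 216 and 61.8 CPM in shYthdf2 1, 2 and 3, and to 50.1, 41.6 and 66.8 CPM in shNC 1, 2 and 3. Neutrophil markers, also 10 genes, summed to 525, 521 and 128 CPM in shYthdf2 and to 138, 204 and 406 CPM in shNC. None of these markers, nor of the 15 macrophage and monocyte markers given above, was at 0 in all libraries. All 10 platelet markers and 4 of the 10 neutrophil markers had shYthdf2 1 and 2 as their highest libraries, the ones in which Hmox1 was highest. Between shNC 1 and 2 and shNC 3 the sums of macrophage and neutrophil markers differed by a larger factor than that of platelet markers. Single markers did not all follow their sum. The neutrophil markers Retnlg, Ly6g and Ngp were higher in shNC 2 than in shNC 3, and the platelet marker Itgb3 had 6.99, 5.68 and 14.6 CPM in shNC 1, 2 and 3. The part of these cells in the level of Hmox1 was not tested. The constitutive isoform Hmox2 had 45.6, 49.5 and 51.3 CPM in shYthdf2 and 33.3, 64.7 and 41.7 CPM in shNC (log2 fold change 0.07 ± 0.26 SE, edgeR adjusted p = 0.986).

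**Figure D3:**
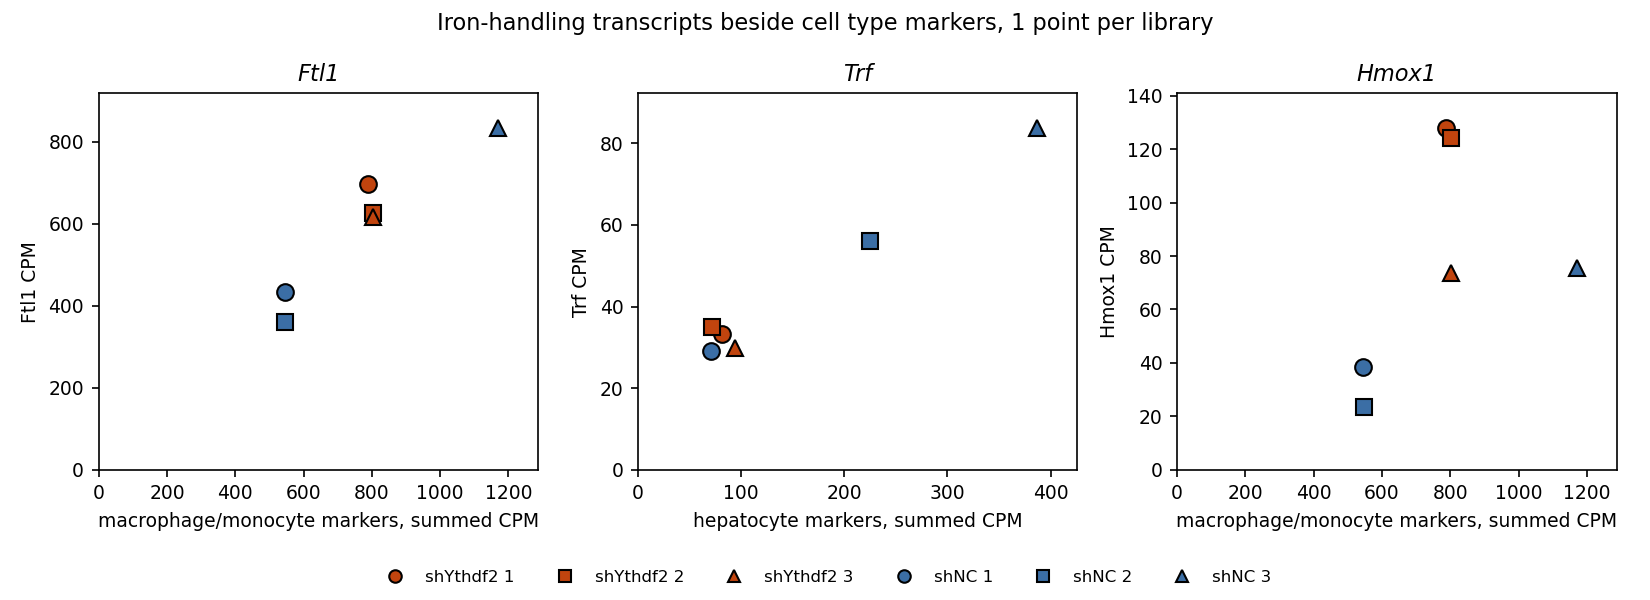
CPM of Ftl1, Trf and Hmox1 (vertical) against the summed CPM of macrophage and monocyte or hepatocyte markers (horizontal), 1 point per library, shYthdf2 in orange and shNC in blue. Ftl1 and the marker sum, of which Lyz2 is the largest part, are both lowest in shNC 1 and 2 and highest in shNC 3, Trf and hepatocyte markers are both highest in shNC 2 and 3, and Hmox1 in shYthdf2 1 and 2 lies above shNC 3, which has the highest sum of macrophage and monocyte markers.

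**Figure D4:**
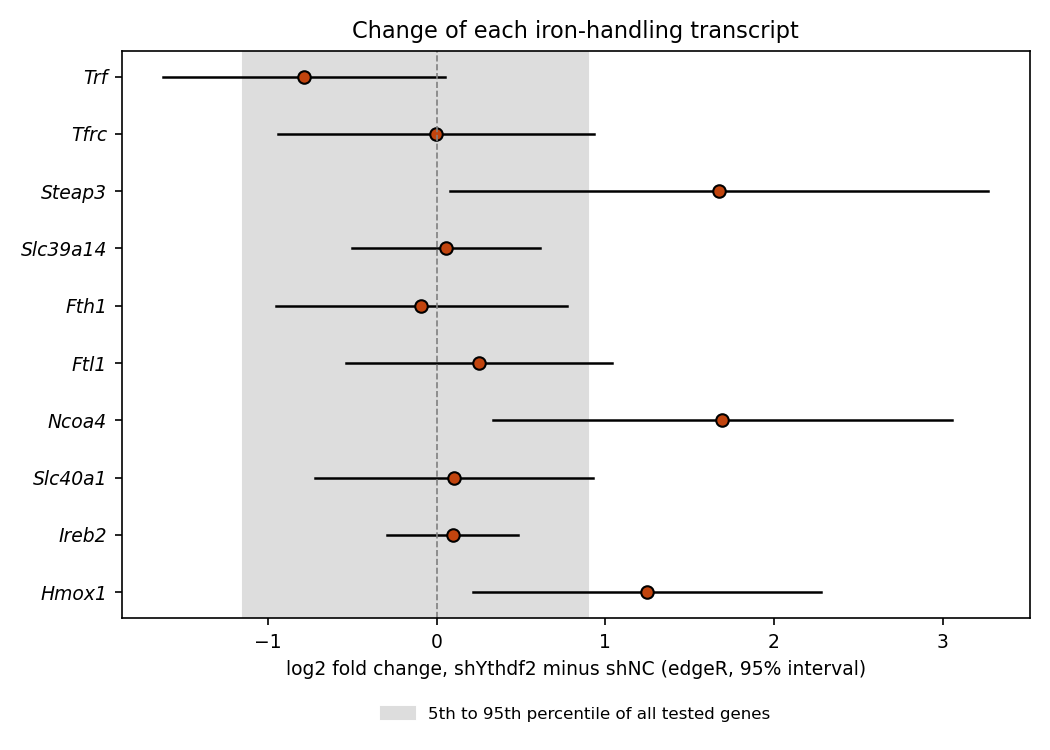
Log2 fold change, shYthdf2 minus shNC, of the 10 genes with the 95% interval from edgeR; the grey band is the 5th to 95th percentile of all 20489 genes tested, from -1.15 to 0.90. Steap3, Ncoa4 and Hmox1 lie above the band with intervals that leave out 0, and none passed the adjusted threshold.

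For the 3 genes with the smallest p, the genes nearest in pattern were found among 14485 others with a mean of at least 1 CPM, by the root mean square difference of log2 CPM over the 6 libraries after the gene's mean was taken off. The nearest to Ncoa4 was Steap3, at 0.337 log2 units, then Celf2 at 0.351 and Lpcat1 at 0.382. Celf2, an RNA-binding splicing regulator, had 7.42, 48.1 and 51.2 CPM in shYthdf2 1, 2 and 3, and 9.48, 11.8 and 9.44 CPM in shNC 1, 2 and 3, the same contrast of shYthdf2 2 and 3 with the other 4 libraries. For Steap3 they were Ncoa4, Celf2 (0.425) and Gm21451 (0.428). The nearest to Hmox1 was Cd84, a leukocyte surface receptor, at 0.168, with 20.1, 19 and 13.9 CPM in shYthdf2 and 7.14, 4.29 and 16.3 CPM in shNC. Fam167a (0.201) and Spred3 (0.214) followed.

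The wider iron system was read from 6 lists, which held 111 genes in all, the 10 included. Of the 105 tested, 0 passed in edgeR, against 0.00976% of all genes tested, and 10 had an unadjusted p under 0.05, against 3.65% of all. In DESeq2 0 of them passed, against 0.187% of all, and in limma on log2(FPKM + 0.5) 0 of the 92 tested there, against 0.0211% of all. The groups did not overlap in CPM for 5 genes with higher and 4 with lower values in shYthdf2, against 4.95% and 4.55% of all genes tested. Median log2 fold changes were 0.09 for 17 genes of the transferrin cycle and iron uptake. They were 0.11 for 15 of ferritin, iron chaperones and ferritinophagy, and 0.04 for 11 of iron export and the hepcidin axis. The median was 0.09 for 15 genes listed for iron sensing or as IRE-carrying. Those of 27 heme genes and 25 genes of mitochondrial iron and iron-sulfur clusters were -0.06 and -0.23, against -0.01 over all genes tested. The IRE pattern above was found in 6 genes over all 6 lists, so not every gene listed as IRE-carrying was shown to hold one.

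Among uptake genes, Tfr2, the second transferrin receptor, best known from hepatocytes and erythroid cells, had 0.166, 0.297 and 0.289 CPM in shYthdf2 1, 2 and 3, against 0.270, 1.49 and 1.88 CPM in shNC 1, 2 and 3. Like Trf and the hepatocyte markers it was highest in shNC 2 and 3. Its log2 fold change was -2.27 ± 0.76 (SE, edgeR adjusted p = 0.976). The metalloreductases Steap2 and Steap4 had log2 fold changes of 0.62 ± 0.46 and -0.50 ± 0.41 (SE), each at an adjusted p of 0.976, opposite in sign to each other. Atg9a, an autophagy membrane protein, had 46.0, 45.4 and 55.3 CPM in shYthdf2 and 43.2, 34.8 and 25.4 CPM in shNC, without overlap (log2 fold change 0.51 ± 0.23 SE, edgeR adjusted p = 0.976). Rb1cc1, a subunit of the autophagy-initiating kinase complex, had a log2 fold change of -0.46 ± 0.22 (SE), and Scara5, a receptor for ferritin, one of -1.35 ± 0.87 (SE), each at an edgeR adjusted p of 0.976.

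Among export and sensing genes, Bmp2, a ligand of the pathway that induces hepcidin, had 2.49, 2.16 and 3.75 CPM in shYthdf2 and 1.16, 0.782 and 1.92 CPM in shNC, without overlap (log2 fold change 1.12 ± 0.44 SE, edgeR adjusted p = 0.976). Tmprss6, a liver protease that restrains hepcidin, had 0.402, 0.375 and 0.342 CPM in shYthdf2 and 0.446, 0.826 and 1.96 CPM in shNC, and Hjv, a co-receptor of that pathway found in muscle and liver, a log2 fold change of -0.84 ± 0.53 (SE, edgeR adjusted p = 0.976). Aco1, which encodes IRP1, had 30.6, 32.8 and 45.1 CPM in shYthdf2 against 24.3, 23.7 and 28.1 CPM in shNC. All its shYthdf2 values were the higher (log2 fold change 0.51 ± 0.21 SE, unadjusted p = 0.0428 and adjusted p = 0.976 in edgeR), unlike those of Ireb2 above. Hif1a, a hypoxia-induced transcription factor, had 104, 109 and 117 CPM in shYthdf2 and 69.4, 79.2 and 97.3 CPM in shNC, also without overlap (log2 fold change 0.43 ± 0.19 SE, edgeR adjusted p = 0.976).

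Alas2, the first enzyme of heme synthesis in red cell precursors, had 7.35, 7.26 and 9.55 CPM in shYthdf2, against 28.2, 40.4 and 7.81 CPM in shNC (log2 fold change -1.66 ± 0.53 SE, edgeR adjusted p = 0.976). It was high in shNC 1 and 2, as were the 9 erythroid and blood markers, Alas2 among them, which summed to 633, 631 and 660 CPM in shYthdf2 and to 2132, 3742 and 495 CPM in shNC. Bach2, a repressor related to BACH1, had 2.26, 2.61 and 1.13 CPM in shYthdf2 and 5.58, 3.13 and 4.33 CPM in shNC, without overlap (log2 fold change -1.12 ± 0.41 SE, edgeR adjusted p = 0.976). Ppox, an enzyme of heme synthesis, and Hpx, the plasma heme carrier made by the liver, had log2 fold changes of -0.32 ± 0.16 and -1.45 ± 0.82 (SE), each at an edgeR adjusted p of 0.976. Of the regulators of Hmox1, Bach1 averaged 28.4 ± 2.52 CPM in shYthdf2 and 29.6 ± 3.50 CPM in shNC, and Nfe2l2, which encodes NRF2, averaged 81.4 ± 3.61 CPM in shYthdf2 and 84.1 ± 1.31 CPM in shNC (SD, n = 3 each).

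Genes of mitochondrial iron and iron-sulfur clusters had a log2 fold change below 0 in 21 of 25, 0 of which passed in edgeR, against 10522 of all 20489 tested. Cisd3, an iron-sulfur protein of the mitochondrial matrix, had 34.0, 27.9 and 27.8 CPM in shYthdf2 and 53.1, 67.6 and 33.2 CPM in shNC (log2 fold change -0.78 ± 0.28 SE, edgeR adjusted p = 0.976). Glrx5, a glutaredoxin that passes clusters on, had 66.9, 61.4 and 60.2 CPM in shYthdf2 and 83.3, 106 and 70.1 CPM in shNC, without overlap (log2 fold change -0.46 ± 0.20 SE, edgeR adjusted p = 0.976). Both were highest in shNC 2 and then in shNC 1, while shNC 3 lay below shYthdf2 1 for Cisd3. The 12 cardiomyocyte markers summed to 32166, 30733 and 36752 CPM in shYthdf2 and to 43629, 60628 and 24310 CPM in shNC, also highest in shNC 2 and then shNC 1. Of the 12 markers, 8 had shNC 1 and 2 as their highest libraries. Actc1, Actn2, Ttn and Mb did not, and Ttn was higher in all shYthdf2 libraries than in any shNC library (log2 fold change 1.09 ± 0.28 SE, edgeR adjusted p = 0.976). The part of the 12 markers in these levels was not tested. Sfxn2, a mitochondrial carrier of the sideroflexin family, went the other way, with 7.81, 7.53 and 8.95 CPM in shYthdf2 and 2.66, 6.55 and 1.01 CPM in shNC (log2 fold change 1.25 ± 0.60 SE, edgeR adjusted p = 0.976).

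**Figure D5:**
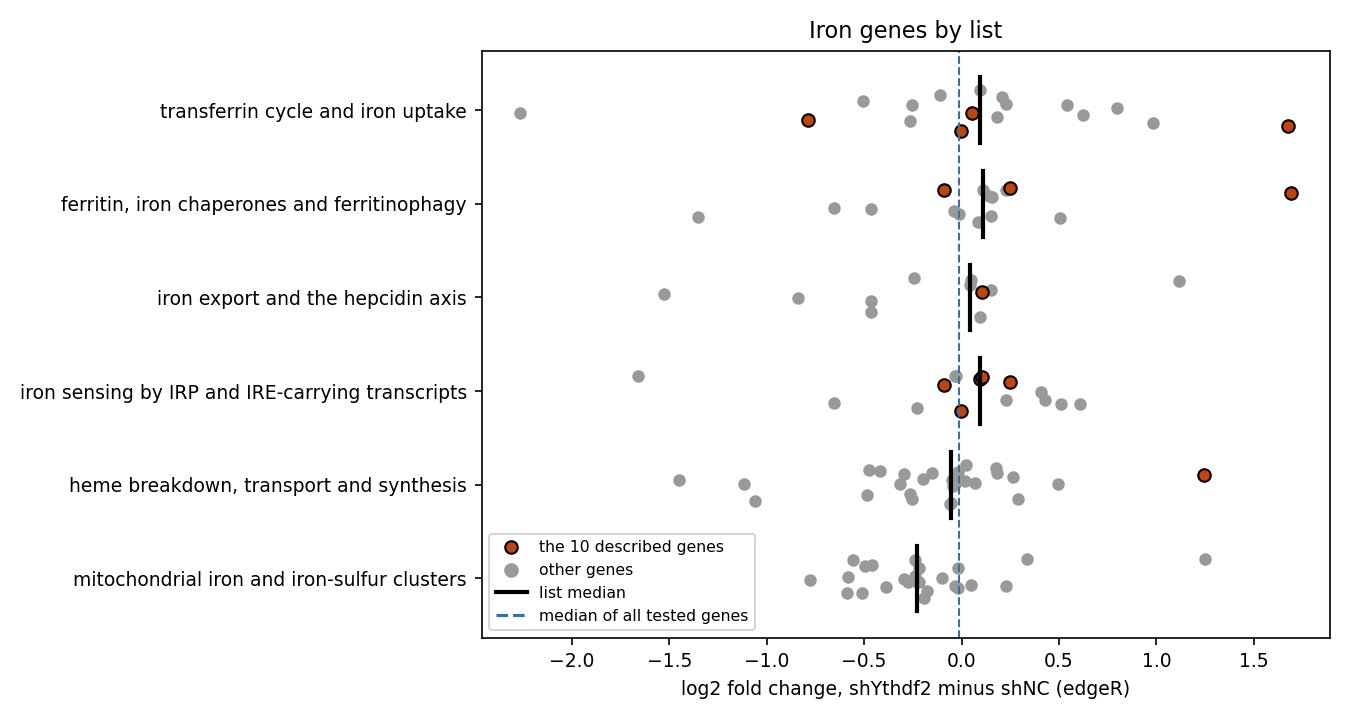
Log2 fold change, shYthdf2 minus shNC, of the genes tested in each of 6 iron lists (points, the 10 described genes in orange), with the list median (black bar) and the median of all genes tested (dashed line). The medians run from -0.23 for mitochondrial iron and iron-sulfur clusters to 0.11 for ferritin, iron chaperones and ferritinophagy.

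Start-site windows of RefSeq (GRCm38.p6, 250 bases before to 50 after a start) were matched by symbol for 6 of the 10 genes, with 13 windows. Hmox1, Trf, Slc40a1 and Slc39a14 were not among them. TGACNNNGC, the core of the antioxidant response element bound by NRF2 and BACH1, was found on either strand in 1 window, of Ncoa4, and in 12.4% of all 32851 windows. ACGTG, the core of the hypoxia response element, was found in 4 windows, of Ncoa4 and Tfrc, and in 19.6% of all.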

How the data were processed

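RNA of 6 mouse heart samples, prepared with a TruSeq kit per the labels' protocols, is held in 1 deposited table. It holds raw counts per gene as the authors deposited them, and FPKM that the authors derived, per the file headers, with 0.0001 for a gene without counts. The submitters' processing notes list Bowtie 0.12.2 and mm8 without saying what they were used for. Which counting tool, annotation and strand setting produced the table is not given in the sources used here, and reads of overlapping genes may be shared.

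Counts were tested over the whole table in edgeR 4.0.16 (R 4.3.3; quasi-likelihood, two-sided, TMM, filterByExpr, Benjamini-Hochberg over 20489 genes); CPM use TMM-scaled library sizes, and SE come from the F statistic. Alternatives were DESeq2 1.42.0, limma 3.58.1 on log2(FPKM + 0.5) and log2(FPKM + 0.1) (at least 0.5 FPKM in 3 libraries), other scalings, no filter, a replicate block, shYthdf2 1 and 2 summed, and each library left out. Added after seeing the data were the sums with the Ftl1 nested row and Ncoa4-ps, and GENCODE M21 lengths. The edgeR fit was tested on simulated counts with known changes, 50 genes at each size, at the spread of these libraries. It recovered 6% of the 2-fold, 44% of the 4-fold, 72% of the 8-fold and 84% of the 16-fold changes, with 15 false calls. A gene that did not pass may therefore still differ between the groups, and a gene that passed may be a false call.

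The 10 genes, lists and markers were chosen with earlier results of these data known. Named are these 10, the 3 other genes of smallest p in each iron list, Ythdf2, the 3 nearest genes in pattern, and markers a result touches; Hmox2, Bach1, Nfe2l2 and Alb were added after their values were seen. The marker Ahsp was not matched.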

Additional observations from a re-analysis of the deposited data

How the results depend on the processing

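Over all genes, 2 passed in edgeR and with DESeq2's size factors or no filter. The number was 1 with total counts, 47 with DESeq2, 3 and 1 with limma on log2(FPKM + 0.5) and log2(FPKM + 0.1), 0 with the replicate block, 0 with shYthdf2 1 and 2 summed, and 0 to 211 with a library left out, 211 being without shNC 3. Over 144 alternative values of the 10 genes none passed, and the sign turned in 9. For Fth1 these were 0.08 and 0.19, without shNC 2 and without shYthdf2 3, in a range of -0.29 to 0.19. For Tfrc the log2 fold change was 0.0073 with no filter and 0.21 with shYthdf2 1 and 2 summed, and -0.50 to 0.35 with a library left out. It was -0.20 to 0.32 for Slc40a1 and -0.12 to 0.27 for Slc39a14 with a library left out. The ratio of Ftl1 to Fth1 differed by 0.07 to 1.08 on the log2 scale, and that of Tfrc to Fth1 by -0.67 to 0.62. The cause of these turns was not tested. With the replicate block the log2 fold change was 1.39 for Hmox1, 1.41 for Ncoa4 and 1.19 for Steap3, and no call changed among the 10. With the block the SE fell from 0.40 to 0.19 for Tfrc and from 0.37 to 0.23 for Fth1. It also fell for Ftl1 and Slc40a1, and rose for the rest of the 10, as from 0.44 to 0.52 for Hmox1. Over all genes tested, same-numbered libraries did not deviate together (correlations of -0.02, -0.03 and -0.07). Such correlations cannot tell whether some genes are paired by number, and the labels name no pairing. The common biological coefficient of variation among these libraries was 48.2%, at 67023813 or more counts per library.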
